A study of Homo sapiens with 21 samples.

Results

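Cadherins are membrane proteins that bind calcium and hold neighbouring cells together, and their cytoplasmic tails are tied to the actin cytoskeleton through catenins. Classical cadherins mostly bind their own kind on the next cell, so the set of cadherins a cell carries affects which cells it adheres to, and migrating neural crest cells, the lineage from which neuroblastoma arises, are known for changing that set. The non-clustered protocadherins, the FAT and dachsous proteins and the CELSR proteins share the extracellular cadherin repeat and act in neural cell sorting, neurite growth and planar polarity.

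The sites described here were all consensus ATAC-seq sites whose nearest gene in the deposited annotation was 1 of 42 cadherin or non-clustered protocadherin genes, 1934 of 367900 sites. Of these, 1863 passed the filter on low counts, among 357029 sites tested in all, and each of the 42 genes kept at least 1 tested site. Chromatin accessibility was measured in the human neuroblastoma cell line SK-N-BE(2) 72 h after lentiviral transduction with short hairpin RNAs (shRNAs). The groups were Control (a non-silencing shRNA in the study's text), shARID1A.2 and shARID1A.4 against ARID1A, shARID1B.2 and shARID1B.3 against ARID1B, and the combinations shARID1A/B.2.3 and shARID1A/B.4.2 against both genes, with 3 libraries each and 21 in all. The 2 targets are alternative subunits of BAF, a complex that moves nucleosomes. All groups come from 1 cell line and all carry a lentiviral vector, and accessibility does not measure how far each shRNA lowered its target.

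Libraries held 16140029 to 44472230 reads in sites, and the deepest were libraries of shARID1B.3 and shARID1A/B.2.3. Replicates of a group differed by more than counting noise throughout, with chi-square statistics of 1.08 to 2.47 per degree of freedom, the highest for replicate 2 of shARID1A/B.2.3. Of the genes that mark adrenergic neuroblastoma cells, PHOX2A, HAND2, GATA3, TH and DBH had a site within 1000 bases of the start site, with 2.43 to 43.9 CPM (counts scaled to sequencing depth with TMM factors) in Control. The nearest ISL1 site was centred 5125 bases away and measured 23.5 CPM. Of 7 markers of other cell types, EPCAM had such a site (6.62 CPM) and the other 6 had none.

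The sequences below are the central 200 bases of 4 of the sites named further on for their changes after combined silencing, picked among those that hold a motif because the motifs differ between them. They were read from GRCh38 on the plus strand, and capitals mark a GATA motif (AGATAA), the E-box CAGATG, an AP-1 motif (TGANTCA) or a TEAD motif (GGAATG), on either strand. The first 3 sites closed and the last opened.
CDH18, chr5:19890129-19890328: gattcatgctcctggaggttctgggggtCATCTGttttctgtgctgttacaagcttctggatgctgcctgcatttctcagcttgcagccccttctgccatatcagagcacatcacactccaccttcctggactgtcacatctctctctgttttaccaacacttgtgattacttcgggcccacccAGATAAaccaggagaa
CDH11, chr16:64481595-64481794: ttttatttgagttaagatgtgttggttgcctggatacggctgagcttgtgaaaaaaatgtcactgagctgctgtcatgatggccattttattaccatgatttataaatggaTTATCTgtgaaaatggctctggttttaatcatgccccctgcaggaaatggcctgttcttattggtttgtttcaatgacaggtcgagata
CDH2, chr18:28560082-28560281: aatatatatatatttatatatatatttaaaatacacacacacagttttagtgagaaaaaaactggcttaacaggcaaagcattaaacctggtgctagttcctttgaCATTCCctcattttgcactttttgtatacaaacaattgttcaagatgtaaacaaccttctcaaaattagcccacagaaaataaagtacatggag
PCDH17, chr13:57624703-57624902: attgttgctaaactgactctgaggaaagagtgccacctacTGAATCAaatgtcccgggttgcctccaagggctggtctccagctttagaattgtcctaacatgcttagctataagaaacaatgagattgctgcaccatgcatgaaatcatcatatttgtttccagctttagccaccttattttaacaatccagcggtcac

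The CDH18 window held 2 of these motifs and the others 1 each. The CDH18 window lies in intron 2 of that gene, and the other 3 are intergenic. Across all members closed after combined silencing, 18.6% held AGATAA in their central 200 bases, against 13.5% of the 1863 tested members and 11.7% of all tested sites. The shares with CAGATG were 23.5%, 18.1% and 16%, and those with GGAATG were 12.6%, 11.4% and 11.5%. AP-1 motifs were in 7.65%, 8.86% and 7.38%. All sites closed genome-wide held these motifs in 17.4% (AGATAA), 23.7% (CAGATG) and 10% (AP-1). A match of letters is a description of the sequence and does not show that a factor was bound.

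Combined silencing closed 183 of the 1863 cadherin sites, 9.82%, where 10.3% of all tested sites closed (edgeR quasi-likelihood test on counts, false discovery rate [FDR] under 0.01, mean of both combinations against Control). It opened 31 sites, 1.66%, where 3.43% of all sites opened. The closed share was therefore near the background. Scaling on promoter sites in place of TMM, which moved the median of all sites from 0.032 to −0.199, gave 264 closed member sites (14.2%, where 15.9% of all sites closed) and 7 opened (0.376%, where 0.729% of all sites opened). Without replicate 2 of shARID1A/B.2.3 there were 175 closed and 41 opened, and the matching shares over all sites are not given here. The median log2 change over all tested members was 0.042, beside 0.032 over all tested sites, and most members did not pass the test. Closed sites were spread over 34 genes and opened sites over 19, and the genes differed widely in their share.

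**Figure D1:**
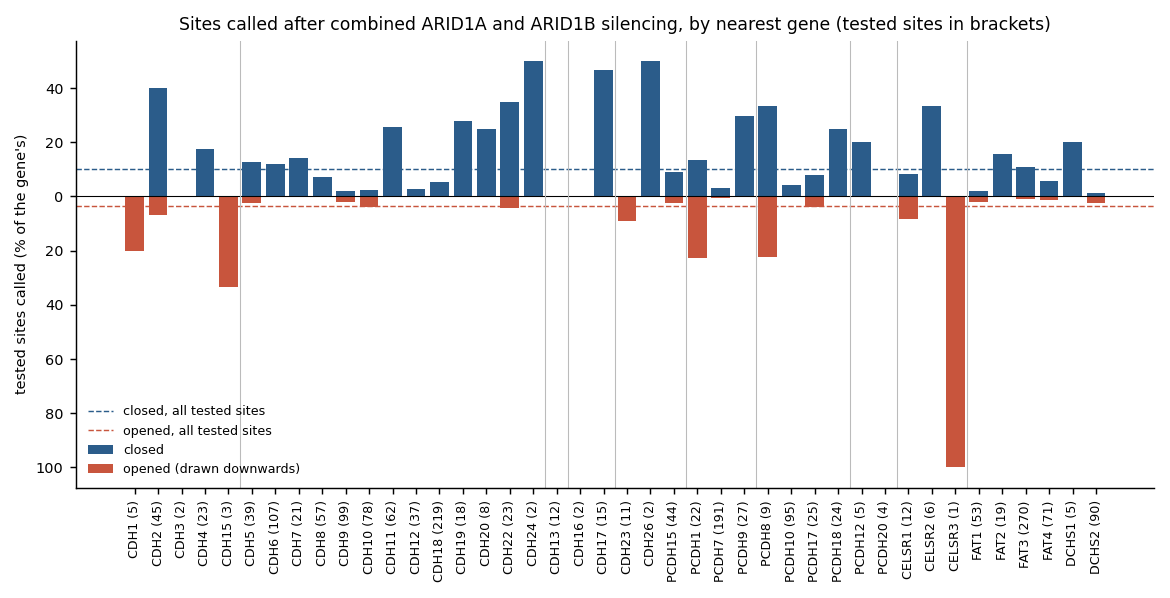
Percentage of each gene's tested sites that closed (bars upwards) or opened (bars downwards) after combined silencing, with the number of tested sites in brackets, grouped by cadherin subfamily between the vertical lines, and dashed lines at the shares over all tested sites (10.3% closed, 3.43% opened). CDH2, with 18 of 45 sites closed, and CDH17, with 7 of 15, stand far above the upper dashed line, and CDH9, with 2 of 99, and DCHS2, with 1 of 90, lie far below it.

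Among the type I classical cadherins, 22 of 78 sites closed (28.2%) and 5 opened, and the closed sites belonged to CDH2 and CDH4. CDH2 encodes N-cadherin, the cadherin of neural tissue and of migrating mesenchymal cells, and 18 of its 45 sites closed while 3 opened. CDH4 (R-cadherin) had 4 of 23 sites closed. CDH1, which encodes the epithelial E-cadherin, had 5 tested sites with none closed and 1 opened, CDH15 (M-cadherin of muscle) had 3 with 1 opened, and CDH3 (P-cadherin) had 2, neither called.

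Among the 13 type II genes, 74 of 770 sites closed (9.61%) and 7 opened. CDH11, the cadherin of mesenchymal and neural crest cells, had 16 of 62 sites closed and none opened. CDH6, which is expressed in kidney and neural crest, had 13 of 107 closed. CDH22 had 8 of 23 closed with 1 opened, CDH5, the VE-cadherin of endothelial junctions, had 5 of 39 closed with 1 opened, and CDH19, known from Schwann cell precursors, had 5 of 18 closed. CDH18 had 12 of 219 sites closed, CDH8 4 of 57, CDH7 3 of 21, CDH20 2 of 8, CDH12 1 of 37 and CDH24 1 of 2. CDH9 had 2 closed and 2 opened of 99, and CDH10 had 2 closed and 3 opened of 78. Outside these groups, CDH17 (liver-intestine cadherin) had 7 of 15 sites closed, whereas the 12 tested sites of CDH13, a cadherin anchored by a lipid, and the 2 of CDH16 were not called in either direction. PCDH15 and CDH23, which together form the tip links of sensory hair cells, had 4 closed and 1 opened of 44 and none closed and 1 opened of 11. CDH26 had 1 of 2 closed.

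Delta-1 protocadherins had 17 of 240 sites closed, including 8 of 27 near PCDH9 and 6 of 191 near PCDH7. PCDH1 had 3 closed and 5 opened sites among 22, the highest number of opened sites of any member. Delta-2 protocadherins had 15 of 153 sites closed, of which 6 were among the 24 sites of PCDH18, 4 among the 95 of PCDH10, 3 among the 9 of PCDH8 and 2 among the 25 of PCDH17. PCDH12 had 1 of 5 closed and PCDH20 none of 4. The FAT and dachsous genes, whose very large proteins act in planar polarity and growth control, had 39 of 508 sites closed (7.68%), and 29 of these lay near FAT3, which had 270 tested sites. FAT4 and its binding partner DCHS1 had 4 of 71 and 1 of 5 closed, FAT2 3 of 19, FAT1 1 of 53 and DCHS2 1 of 90. The CELSR genes had 3 closed and 2 opened of 19, with 2 of 6 closed at CELSR2, 1 of 12 at CELSR1 and the single site of CELSR3 opened.

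The closed share was higher at more open sites. At a mean of 4 CPM or more in Control, 49.7% of 155 member sites closed and 9.68% opened, where 34.9% and 16.7% of all sites at that level did. Between 2 and 4 CPM the closed shares were 21.5% of members and 19.6% of all sites, and under 0.5 CPM none of 418 member sites closed, where 0.0745% of all sites did. Tested members had a median of 0.897 CPM in Control and all tested sites 1.04 CPM, and a site without a call at such levels is one where no change was detectable at this depth.

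The 10 sites with the largest falls were taken from 94 sites that closed with each combination and had at least 1 CPM, at most 1 site a gene. All combination libraries also had to lie below all Control libraries, so the choice of sites fixed that separation. The site with the largest fall lay in intron 10 of CDH17 (chr8:94164682-94165624, 43.4 kb from the start site). Control libraries measured 3.99, 3.86 and 3.97 CPM, shARID1A/B.2.3 libraries 1.02, 0.720 and 0.703, and shARID1A/B.4.2 libraries 1.16, 1.56 and 1.21. All 18 silenced libraries lay below Control. The shARID1A/B.2.3 libraries lay below all 12 single-shRNA libraries, which measured 1.43 to 2.25 CPM, and 1 shARID1A/B.4.2 library overlapped them. The log2 change was −1.93 (SE 0.15, FDR 6.06e-19), and combined silencing was lower than single silencing by a log2 difference of −0.93 (SE 0.13, FDR 2.29e-08).

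CDH18, a type II cadherin of the central nervous system, had its largest fall in intron 2 (chr5:19889746-19890710, 12.1 kb from the start site), at the site whose GATA and CAGATG motifs are printed above. It measured 12.8, 14.3 and 10.9 CPM in Control, 3.05, 3.28 and 2.77 with shARID1A/B.2.3, and 4.03, 4.28 and 3.71 with shARID1A/B.4.2. The single shRNAs stood between, from 5.97 CPM in a library of shARID1A.2 to 9.75 CPM in a library of shARID1A.4, and no group of these overlapped Control or the combinations. The log2 change was −1.85 (SE 0.11, FDR 2.5e-27).

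CDH11 had the fall with the smallest FDR of the 10 (chr16:64481146-64482243, intergenic, 640 kb from the start site). It measured 21.8, 22.0 and 18.8 CPM in Control, 7.22, 7.55 and 7.30 with shARID1A/B.2.3, and 6.05, 6.72 and 5.70 with shARID1A/B.4.2. The log2 change was −1.63 (SE 0.09, FDR 1.8e-28). The shARID1A.2 libraries (9.06, 8.98 and 9.70 CPM) lay below those of shARID1A.4 (14.5, 15 and 12.1), and the latter overlapped the ARID1B libraries, which measured 13.3 to 16.5 CPM.

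The PCDH9 site, 276 kb from the start site of this protocadherin (chr13:67505068-67507246), fell by 1.85 on the log2 scale (SE 0.11, FDR 1.17e-26). Its Control libraries measured 10.5, 10.8 and 9.02 CPM. The libraries of shARID1A/B.4.2 (2.37, 2.16 and 2.23 CPM) were below those of shARID1A/B.2.3 (2.92, 3.83 and 3.65 CPM) without overlap. This difference between combinations was called (log2 0.63, SE 0.16, FDR 0.00308).

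The CDH5 site (chr16:66335764-66336384, 30.5 kb upstream) measured 2.6, 2.42 and 2.37 CPM in Control and 0.484 to 0.941 CPM in the combination libraries, and the log2 change was −1.69 (SE 0.18, FDR 6.66e-13). The ARID1A shRNAs gave 0.739 to 1.19 CPM and a log2 change of −1.33 (SE 0.18, FDR 1.03e-08), whereas the ARID1B shRNAs gave 1.79 to 2.4 CPM and −0.26 (SE 0.16, FDR 0.375). The difference between ARID1A and ARID1B silencing was −1.07 (SE 0.16, FDR 1.42e-07).

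The PCDH10 site (chr4:133438939-133441321, 291 kb away) measured 9.48, 10 and 9.26 CPM in Control, 2.79, 4.14 and 2.90 with shARID1A/B.2.3, and 1.97, 2.85 and 2.64 with shARID1A/B.4.2. It fell by 1.73 on the log2 scale (SE 0.11, FDR 1.34e-23). Here single silencing had already moved accessibility far, by −1.36 for ARID1A and −1.05 for ARID1B, and libraries of shARID1A.4 (2.73 to 3.32 CPM) overlapped those of the combinations. The combined change was smaller than the sum of the single changes by 0.69 on the log2 scale (SE 0.16, FDR 0.00766). This last call was lost with DESeq2 (0.67, FDR 0.0368), with no filter on low counts (0.65, FDR 0.0112) and when any 1 of the Control libraries was left out (0.64 to 0.71, FDR 0.0137 to 0.0259).

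The remaining falls were at CDH20 (−1.74), PCDH15 (−1.62), CDH7 (−1.53) and CDH2 (−1.52), and all 10 sites lay 12.1 to 640 kb from the start site. The CDH2 site (chr18:28559532-28560830, 524 kb upstream) measured 3.37, 3.74 and 3.01 CPM in Control, 1.21, 0.860 and 1.41 with shARID1A/B.2.3, and 1.21, 1.61 and 0.881 with shARID1A/B.4.2. Both combinations were below all Control libraries, as the choice of sites required, and overlapped each other.

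**Figure D2:**
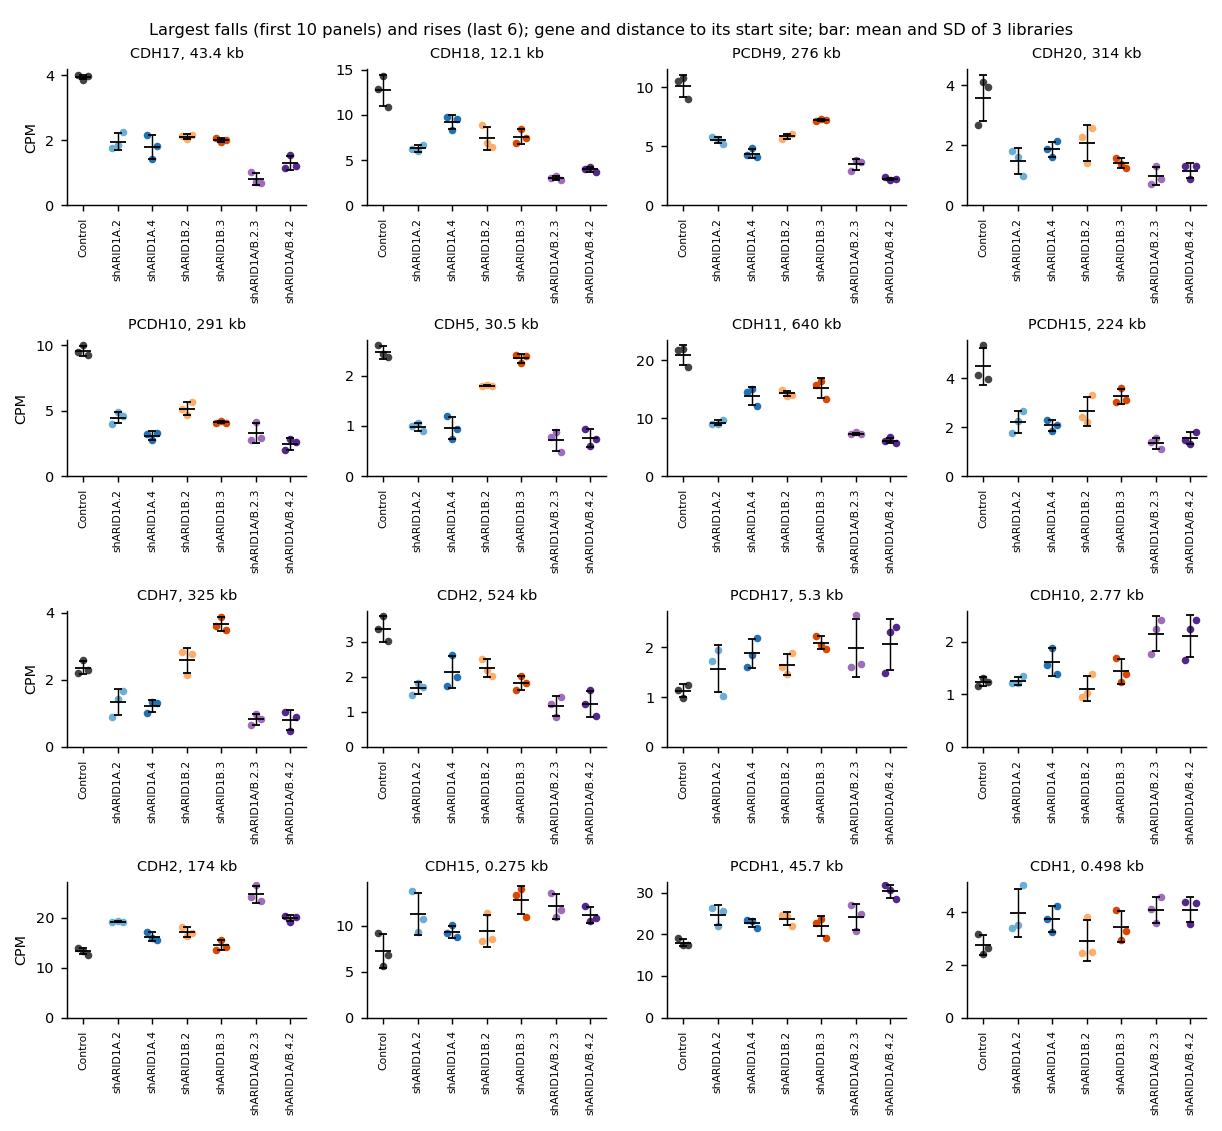
CPM in each of the 21 libraries (points) with the mean and SD of 3 libraries (bars) for the 10 largest falls and the 6 largest rises after combined silencing, each panel titled with the nearest gene and the distance to its start site and each vertical axis starting at 0. In the first 10 panels all combination libraries lie below all Control libraries, as the choice of sites required. In the CDH7 panel the ARID1A libraries also lie below all Control libraries, whereas 1 shARID1B.2 library does and the other ARID1B libraries lie above them all.

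Rises were smaller and fewer than falls. Only 10 sites of 9 genes met the criteria for a named rise, and the 6 largest changed by 0.57 to 0.86 on the log2 scale. These criteria required all combination libraries to lie above all Control libraries. The largest lay 5.3 kb upstream of PCDH17, a protocadherin of the delta-2 group (chr13:57624509-57625096). It measured 1.15, 0.986 and 1.24 CPM in Control, 1.61, 2.65 and 1.67 with shARID1A/B.2.3, and 1.48, 2.30 and 2.41 with shARID1A/B.4.2, which is 0.86 higher on the log2 scale (SE 0.20, FDR 0.000454). Scaled on promoter sites it was not called (0.63, FDR 0.0217), nor was the CDH10 rise below (0.54, FDR 0.0352). The combination libraries at the PCDH17 site, above Control by the criteria, overlapped the single-shRNA libraries, which measured 1.03 to 2.23 CPM. A CDH10 site in intron 1 rose by 0.77 (SE 0.18, FDR 0.000688), and the other rises were at CDH2 (0.74), CDH15 (0.70), PCDH1 (0.59) and CDH1 (0.57).

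Start sites were few among the members. Of 42 genes, 32 had a tested site within 1000 bases of the annotated start site. Of these 32 sites, 3 closed, 4 opened and 25 were not called, with a median log2 change of 0.05. By the deposited annotation, 19 tested members were promoters, of which 1 closed and 3 opened, where 522 of all 12310 tested promoter sites closed and 4112 opened. The counts at the 32 start sites depend on the scaling. They were 9 closed and 2 opened when scaled on promoter sites, and 5 closed with offsets for GC content. Without replicate 2 of shARID1A/B.2.3, 7 of the 32 start sites opened. With TMM scaling and all libraries, the other 180 closed members lay farther away. Of the 183, 114 were over 100 kb from the start site. Closed members were 59.6% intergenic and 38.8% intronic, and their median distance was 154 kb, beside 50.4 kb for all closed sites and 175 kb for all tested members.

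**Figure D3:**
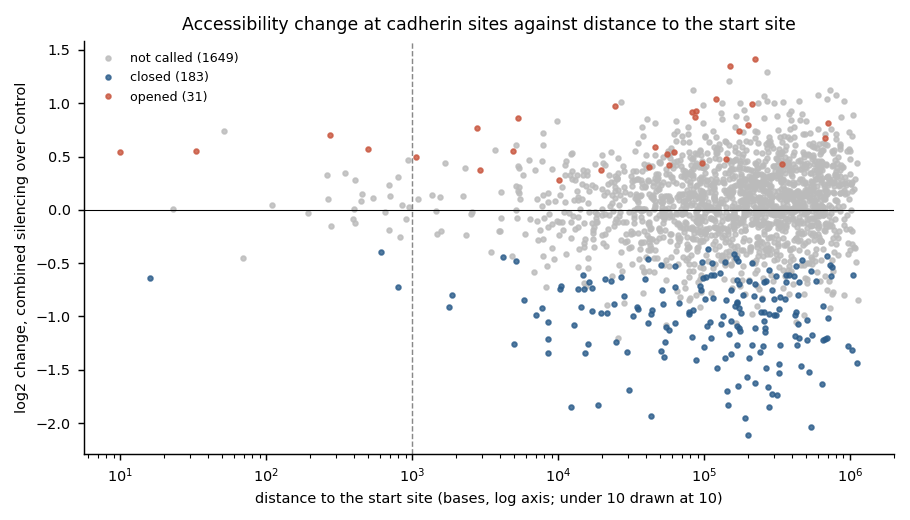
Log2 change after combined silencing (vertical axis) against the distance of a site from the start site of its nearest gene (horizontal log axis, in bases) for the 1863 tested member sites, coloured by call, with a dashed line at 1000 bases. Left of the line lie 3 closed and 4 opened sites, and the other 180 closed sites lie to its right.

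At the start sites, PCDH12, an endothelial protocadherin, fell from 2.79, 2.42 and 2.65 CPM in Control to 1.25, 1.14 and 1.67 with shARID1A/B.2.3 (combined log2 change −0.72, SE 0.16, FDR 0.000333), and the shARID1A/B.4.2 libraries (1.48, 2.48 and 1.81) overlapped Control. CDH22 fell from 6.64, 6.33 and 7.78 CPM to 4.86, 3.25 and 3.78 and to 5.02, 5.34 and 4.78 with the 2 combinations (−0.64, SE 0.11, FDR 5.24e-06). Single silencing left this promoter at −0.20 (ARID1A, FDR 0.303) and 0.04 (ARID1B, FDR 0.883), and the combined against single difference was called (−0.56, SE 0.08, FDR 1.41e-07). The third closed start site was assigned to CDH24 and lies in an intron of LOC102723563 (−0.40, SE 0.08, FDR 1.19e-05). There shARID1A/B.2.3 measured 28.0, 23.4 and 29.6 CPM and shARID1A/B.4.2 34.2, 34.3 and 35.9, against 42, 36.3 and 43.3 in Control.

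The opened start sites were those of CDH15 (0.70), CDH1 (0.57), PCDH15 (0.55) and CELSR3 (0.54), a planar polarity cadherin of axon guidance. CDH15 measured 9.24, 5.63 and 6.77 CPM in Control, 13.6, 11 and 11.7 with shARID1A/B.2.3, and 12.1, 10.5 and 10.9 with shARID1A/B.4.2. CDH1 measured 3.18, 2.42 and 2.65 CPM in Control, 4.14, 3.60 and 4.57 with shARID1A/B.2.3, and 4.39, 3.54 and 4.36 with shARID1A/B.4.2. In both cases the combinations lay above Control without overlap, which the choice of both sites as named rises required. They overlapped the single-shRNA libraries. The call at CDH1 (SE 0.15, FDR 0.00162) was lost with GC offsets (0.38, FDR 0.0373), when scaled on promoter sites (0.34, FDR 0.0917), and without Control replicate 2 (0.52, FDR 0.015) or Control replicate 3 (0.55, FDR 0.0161). PCDH15 measured 2.55, 2.88 and 3.41 CPM in Control, 3.78, 5.02 and 3.74 with shARID1A/B.2.3, and 4.26, 4.69 and 4.27 with shARID1A/B.4.2, again without overlap (SE 0.13, FDR 0.000871). That call was lost when scaled on promoter sites (0.32, FDR 0.101) and without Control replicate 1 (0.46, FDR 0.0229). CELSR3 rose with ARID1A silencing (0.48, SE 0.09, FDR 5.1e-05), with ARID1B silencing (0.41, SE 0.09, FDR 0.00102) and with both, and combined silencing did not pass the test against single silencing (0.09, SE 0.06, FDR 0.381). The start sites of CDH11 (25.9, 23.6 and 25.7 CPM in Control and 25.2 to 29.5 in the combinations) and CDH6 (15.3, 15 and 14.4 against 13.1 to 16.5) overlapped between groups and had log2 changes of 0.10 (SE 0.08) and 0.01 (SE 0.09). The CDH5 start site changed from 2.12, 1.85 and 2.28 CPM to 1.23 to 1.93 CPM in the combinations, with some overlap, and was not called (−0.45, SE 0.17, FDR 0.0498), though it was with GC offsets (−0.68, FDR 0.000955) or scaled on promoter sites (−0.68, FDR 0.00164).

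CDH2 was the member with the most closed sites apart from FAT3, whereas its upstream promoter site opened. The annotation measured its distances from an internal start, and the nearest site to that start, in intron 2 (chr18:28041476-28041704, 5.01 kb away), fell from 1.11, 1.19 and 0.842 CPM to 0.230, 0.418 and 0.352 with shARID1A/B.2.3 and to 0.448, 0.690 and 0.510 with shARID1A/B.4.2 (−1.26, SE 0.27, FDR 0.000186). All combination libraries lay below Control. The CDH2 site with the smallest p lay in intron 1 (chr18:28158008-28159783) and measured 5.44, 4.97 and 5.73 CPM in Control, 1.58, 1.65 and 2.51 with shARID1A/B.2.3, and 1.84, 1.84 and 2.37 with shARID1A/B.4.2. Again all combination libraries lay below Control, and 2 of the 6 overlapped the single-shRNA libraries (2.06 to 4.17 CPM). Its log2 change was −1.48 (SE 0.14, FDR 5.37e-16).

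The promoter that RefSeq gives for the upstream CDH2 start lies within a wide site of 3309 bases (chr18:28175251-28178559), which was examined after its values had been seen. It measured 33.1, 30.3 and 29.3 CPM in Control, 44.1, 46.1 and 42.3 with shARID1A/B.2.3, and 42.2, 41.1 and 42 with shARID1A/B.4.2, all 6 above Control. It opened by 0.48 (SE 0.08, FDR 3.32e-07), more than with single silencing (difference 0.27, SE 0.05, FDR 5.94e-05). With offsets for GC content the change was 0.20 and no longer called (FDR 0.037). Thus the most open CDH2 site rose while 18 less open sites, of 0.915 to 7.07 CPM in Control, closed. Both values belong to the chromatin of 1 gene, and no transcript level was measured here.

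**Figure D4:**
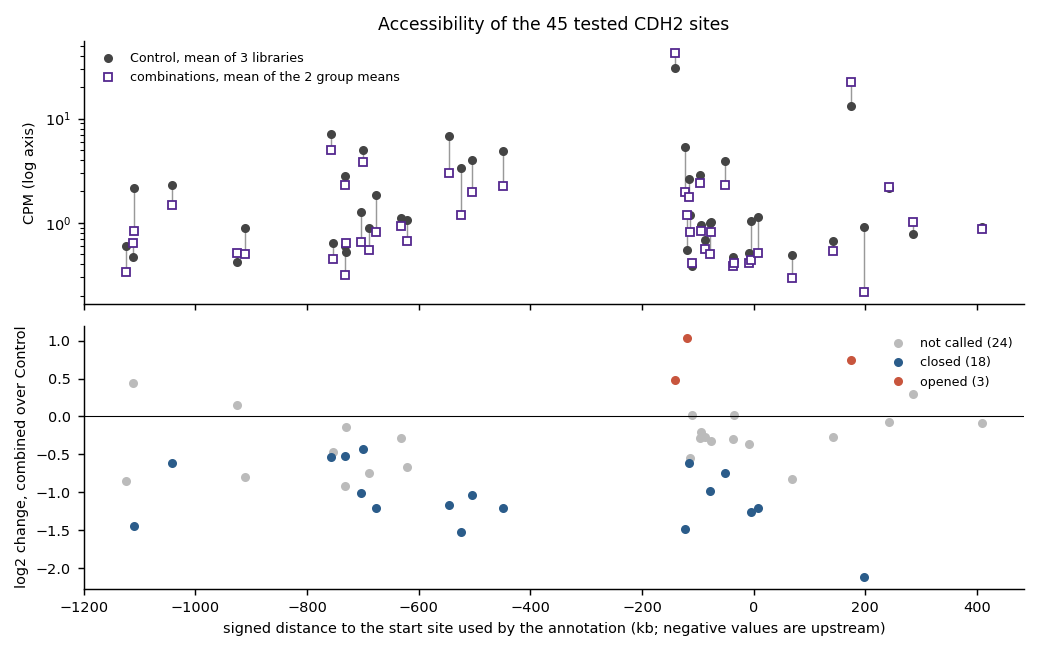
Accessibility of the 45 tested CDH2 sites by signed distance to the start used by the annotation (kb, negative upstream): mean CPM in Control (filled circles) and over the combinations (open squares) on a log axis above, and the log2 change coloured by call below. The site at the upstream promoter, 140 kb upstream, is the highest point in both groups and opened, and 18 sites, most of them upstream, closed.

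The 250 bases before the start are printed for 3 genes whose promoter site opened, because the windows differ in CpG content while their sites moved the same way. They are RefSeq promoters (GRCh38.p14, minus strand) with CpG dinucleotides in capitals, which number 17 for CDH2, 25 for CELSR3 and 7 for PCDH15. RefSeq windows were found for 25 member genes (38 windows, median 9.5 CpGs in the 250 bases, beside 11 over all 35116 windows).
CDH2, chr18:28177131-28177380: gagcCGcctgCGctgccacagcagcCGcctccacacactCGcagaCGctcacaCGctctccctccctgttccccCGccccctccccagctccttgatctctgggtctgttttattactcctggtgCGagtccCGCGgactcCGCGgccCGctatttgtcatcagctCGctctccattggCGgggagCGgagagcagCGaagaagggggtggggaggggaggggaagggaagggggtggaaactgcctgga
CELSR3, chr3:48662887-48663136: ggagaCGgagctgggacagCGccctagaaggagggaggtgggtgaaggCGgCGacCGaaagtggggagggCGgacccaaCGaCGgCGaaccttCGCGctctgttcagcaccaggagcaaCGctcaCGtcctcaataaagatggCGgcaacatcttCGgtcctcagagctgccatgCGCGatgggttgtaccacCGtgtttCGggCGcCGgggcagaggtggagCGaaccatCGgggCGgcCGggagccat
PCDH15, chr10:54801232-54801481: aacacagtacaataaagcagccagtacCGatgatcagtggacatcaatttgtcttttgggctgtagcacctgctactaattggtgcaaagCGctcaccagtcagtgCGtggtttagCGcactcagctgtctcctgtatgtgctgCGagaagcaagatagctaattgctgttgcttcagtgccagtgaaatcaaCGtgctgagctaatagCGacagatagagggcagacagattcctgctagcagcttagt

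These windows were covered by 22 distinct tested sites of 21 genes, of which 1 closed (PCDH12), 4 opened (CDH2, CELSR3, PCDH8 and PCDH15) and 17 were not called. The PCDH8 site (chr13:52846071-52849097) measured 29.6, 28.9 and 27.0 CPM in Control, 40.0, 40.5 and 38.0 with shARID1A/B.2.3, and 40.8, 40.7 and 41.6 with shARID1A/B.4.2, and it opened by 0.50 (SE 0.07, FDR 4.39e-08), a call that was lost with GC offsets (0.22, FDR 0.0188). The 4 opened sites had no combination library within the range of Control.

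Counts summed over all sites of a gene gave 12 member genes lower and 3 higher of 42 after combined silencing, where 20.9% of all 26743 genes were lower and 15.9% higher. Without replicate 2 of shARID1A/B.2.3 the numbers were 20 and 5, and scaled on promoter sites 26 were lower. For these 2 settings the shares over all genes are not given here. The median log2 change of the member sums was −0.157 beside 0.017 for all genes. A sum leans on the most open sites of a gene. CDH17 fell most, from 84.5, 78.6 and 81.3 CPM in Control to 40.1, 38.5 and 40.3 with shARID1A/B.2.3 and 56.7, 55.9 and 55.2 with shARID1A/B.4.2 (−0.79, SE 0.04, FDR 1.38e-13). CDH11 fell from 172, 186 and 168 CPM to 122, 143 and 118 and to 112, 123 and 110 (−0.53, SE 0.06, FDR 1.47e-07). For both genes all combination libraries lay below Control, and at CDH11 the 2 combinations overlapped each other.

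PCDH18 (−0.52, SE 0.06), CDH26 (−0.43, SE 0.13) and CDH24 (−0.43, SE 0.05) followed, and PCDH9, CDH20, FAT2, DCHS1, CDH22, CDH6 and CDH4 were also called lower. CDH26 rested on 2 tested sites and 2.97 to 3.84 CPM in Control. CDH24 also rested on 2 tested sites. Its closed start site described above, with a mean of 40.5 CPM in Control, made up most of its sum of 44.3 CPM. CDH15 (0.55, SE 0.10, FDR 0.000117), CELSR3 (0.47, SE 0.09, FDR 9.95e-05) and PCDH8 (0.17, SE 0.05, FDR 0.00684) were higher. CDH2 as a sum changed by −0.16 (SE 0.06, FDR 0.024) and was not called, and FAT3 likewise (−0.18, SE 0.07, FDR 0.0288). ARID1A silencing lowered 6 sums and raised 1 (14.4% and 7.28% of all genes), and ARID1B silencing lowered 7 and raised 2 (9.95% and 5.44%).

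Each combination was then compared with Control on its own. The combination shARID1A/B.2.3 closed 176 member sites (9.45%, background 10.4%) and opened 48 (2.58%, background 2.85%). The combination shARID1A/B.4.2 closed 144 (7.73%, background 7.37%) and opened 26 (1.40%, background 3.97%). Both closed 114 sites, 64.8% and 79.2% of their lists, and both opened 10. The matching overlap over all tested sites is not given here. The direct comparison of the combinations called 35 member sites lower and 38 higher with shARID1A/B.2.3 (background 3.79% and 1.43%). The higher count was 97 when scaled on promoter sites (5.21% of members, 3.31% of all sites), 64 scaled by total counts (3.44% and 2.33%) and 21 with DESeq2 (1.13% and 0.813%).

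ARID1A silencing closed 86 member sites and opened 13, 4.62% and 0.698% of the tested members, where 5.37% and 1.67% of all sites were called. ARID1B silencing closed 73 and opened 12, 3.92% and 0.644%, where 3.53% and 1.39% were called. Of the 183 sites closed after combined silencing, 41 were also called closed with each single target, 43 with ARID1A alone, 29 with ARID1B alone and 70 with neither. Over these 183 sites the median log2 change was −0.963 for the combinations, −0.536 for ARID1A and −0.453 for ARID1B. These comparisons share the Control libraries, and the 183 sites were chosen on the combined contrast. The matching split over all closed sites is not given here, so these counts do not set cadherin sites apart.

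The comparison of the combinations with the 4 single-shRNA groups does not use Control. It called 110 member sites lower and 22 higher with combined silencing, 5.90% and 1.18% of the tested members, where 6.85% and 0.969% of all sites were called. Of the sites closed against Control, this included 10 of 18 at CDH2, 14 of 29 at FAT3, 6 of 13 at CDH6, 7 of 12 at CDH18 and 6 of 8 at CDH22. The shares were lower at CDH11 (6 of 16), CDH5 (2 of 5), PCDH9 (3 of 8), PCDH7 (1 of 6) and CDH9 (0 of 2). The closed sites were chosen on the same combination libraries, so this overlap is not independent support. The matching share over all closed sites is not given here. The departure of the combined change from the sum of the single changes was called at 7 member sites in the lower and 4 in the higher direction, where 0.376% and 0.14% of all sites were called. Of the lower ones, the largest lay near CDH9 (−1.48, SE 0.31, FDR 0.00211), CDH18 (−1.18, SE 0.23, FDR 0.00102) and PCDH17 (−1.16, SE 0.24, FDR 0.00295). At these 3 sites single silencing gave log2 changes from 0.32 to 1.02 and combined silencing from −0.14 to 0.18. At FAT3 (chr11:91761516-91762087) the departure was 1.10 (SE 0.25, FDR 0.00689), with Control at 2.69, 2.47 and 2.65 CPM and every silenced library, single or combined, at 0.696 to 1.62 CPM. The FAT3 call was lost with DESeq2 (1.09, FDR 0.0423) and when any 1 of the Control libraries was left out (1.07 to 1.12, FDR 0.0117 to 0.0218). With DESeq2, 4 sites were called in the lower and 0 in the higher direction (67 of the latter at an unadjusted p under 0.05). Leaving out Control replicate 1, 2 or 3 in edgeR also gave 0 in the higher direction (147, 87 and 158 at an unadjusted p under 0.05). Without replicate 2 of shARID1A/B.2.3 the counts were 12 lower and 2 higher, and without Control replicate 1 or Control replicate 3 there were 3 lower.

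ARID1A and ARID1B silencing differed at 74 member sites, 46 lower and 28 higher with ARID1A silencing, where 3.69% and 1.05% of all sites were called. Sites that were lower with ARID1A silencing included sites of PCDH15, CDH18 and CDH7. At the CDH7 site, Control libraries measured 2.21, 2.59 and 2.28 CPM. The ARID1A shRNAs gave 0.906 to 1.66 CPM and the ARID1B shRNAs 2.14 to 3.89 CPM, and the libraries of the 2 targets did not overlap (log2 difference −1.28, SE 0.14, FDR 2.54e-11). The combinations measured 0.46 to 1.03 CPM, and their change departed from the sum of the single changes by −1.02 (SE 0.24, FDR 0.00956).

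A second CDH18 site in intron 2 (chr5:19918662-19919503, 41 kb from the start site) measured 4.04, 4.36 and 4.17 CPM in Control, 1.80 to 2.44 with the ARID1A shRNAs, and 4.62 to 5.59 with the ARID1B shRNAs. The difference was −1.31 (SE 0.11, FDR 2.33e-16), and the combinations (1.25 to 2.82 CPM) overlapped the ARID1A libraries. The PCDH15 site 258 kb from its start differed by −1.32 (SE 0.13, FDR 3.54e-13). In the other direction, a PCDH9 site in intron 2 (chr13:67133380-67134959) stayed at 11.2 to 13.2 CPM with ARID1A shRNAs beside 9.18 to 12.0 in Control. It measured 9.43, 9.71 and 8.93 CPM with shARID1B.2 and 4.6, 4.96 and 4.54 with shARID1B.3. The log2 change was −1.16 (SE 0.12, FDR 1.51e-13) for shARID1B.3 and −0.17 (SE 0.11, FDR 0.465) for shARID1B.2. Sites of PCDH18 (0.95, SE 0.15) and FAT4 (0.75, SE 0.12) were also higher with ARID1A than with ARID1B silencing.

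**Figure D5:**
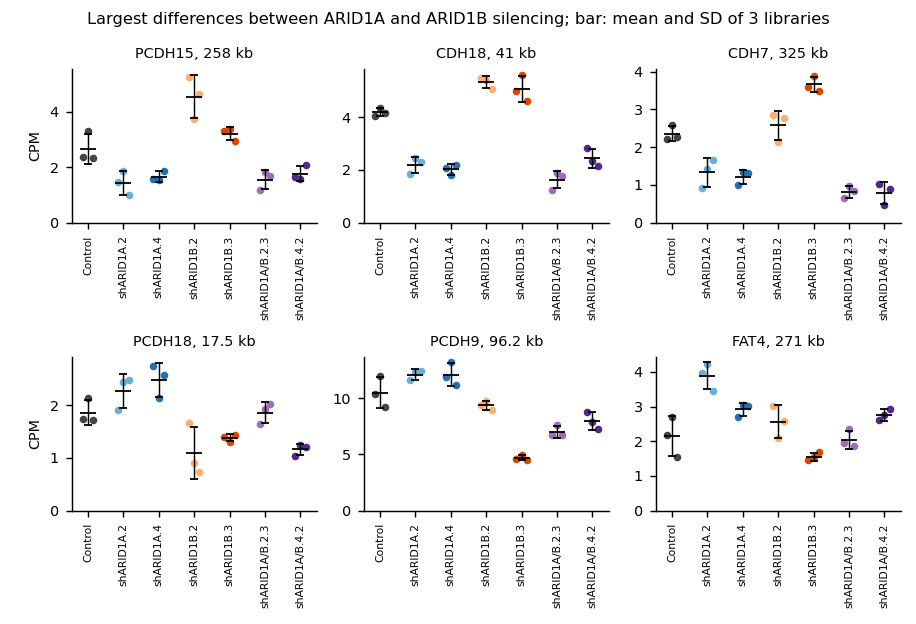
CPM in each library (points) with the mean and SD of 3 libraries (bars) at the 3 sites most lowered (upper row) and the 3 most raised (lower row) by ARID1A silencing relative to ARID1B silencing, with vertical axes from 0. In the upper row the ARID1A libraries lie below the ARID1B libraries at each site, and in the PCDH9 panel the shARID1B.3 libraries stand below those of shARID1B.2.

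Taken singly, shARID1A.2 closed 81 member sites and opened 11 (4.35% and 0.59%, background 4.54% and 0.834%). For shARID1A.4, 65 closed and 21 opened (3.49% and 1.13%, background 4.17% and 2.28%). The corresponding numbers were 36 and 20 for shARID1B.2 (1.93% and 1.07%, background 1.84% and 1.34%). They were 93 and 35 for shARID1B.3 (4.99% and 1.88%, background 4.88% and 3.12%). The 2 shRNAs against ARID1A agreed on 38 closed sites and 1 opened, and those against ARID1B on 26 closed and 0 opened. The matching overlaps over all tested sites are not given here. A few sites were picked after their values had been seen, because they were called in opposite directions by the 2 shRNAs of a target or by the 2 combinations. The shARID1A.2 and shARID1A.4 pair did so at 2 sites, both of CDH6, and the shARID1B.2 and shARID1B.3 pair at 1 site of CDH2. At the first, in intron 6 (chr5:31303256-31305447), Control libraries measured 28.6, 30.5 and 28.3 CPM, shARID1A.2 libraries 14.6, 15.2 and 13.9, and shARID1A.4 libraries 37.5, 40.7 and 36.3. The log2 changes were −1.0 (SE 0.09, FDR 1.55e-14) and 0.39 (SE 0.09, FDR 0.000781). This was also the CDH6 site with the smallest p after combined silencing (−0.61, SE 0.08, FDR 2.14e-10). At the second, in exon 12 (chr5:31327442-31328919), shARID1A.4 (13.4, 13.4 and 15.5 CPM) and shARID1B.3 (11.1, 12.3 and 12.3) stood above Control (5.20, 6.78 and 5.17), and shARID1A.2 (3.58, 4.02 and 4.09) below it.

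The combinations were called in opposite directions at 3 sites. At a PCDH10 site (chr4:133471170-133473117), Control measured 3.51, 2.92 and 3.57 CPM, shARID1A/B.2.3 2.17, 2.58 and 1.93, and shARID1A/B.4.2 7.71, 8.47 and 7.51. The shRNAs shARID1A.4 (11.6, 10.4 and 9.83 CPM) and shARID1B.2 (7.20, 6.55 and 5.75), whose numbers the second combination carries, were also high. The 2 combinations differed by −1.79 (SE 0.14, FDR 8.67e-19). At a CDH18 site (chr5:19865492-19866955), shARID1B.3 (12.4, 12.7 and 11.8 CPM) and shARID1A/B.2.3 (7.81, 8.06 and 7.52) were above Control (5.58, 5.84 and 5.45), and shARID1A/B.4.2 (3.36, 4.6 and 3.66) was below it. At a CDH2 site of 0.321 to 0.626 CPM in Control (chr18:28766008-28766327), shARID1B.2 and shARID1A/B.4.2 were high (0.974 to 1.52 CPM) and shARID1B.3 and shARID1A/B.2.3 low (0.117 to 0.294 CPM). The difference between the 2 shRNAs of a target was not tested.

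Of the 183 closed member sites, 135 had another closed site of the same gene within 50 kb, so the counts above are not of independent regions. FAT3, an atypical cadherin of neurons, had 29 closed sites with log2 changes of −1.65 to −0.41 and Control levels of 1.04 to 33.2 CPM, 32.7 to 653 kb from its start site. Of these, 17 closed with each combination. CDH11 had 11 of 16 and CDH6 8 of 13 closed with each combination, and CDH22 4 of 8.

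Other genes of the cadherin system were described in the same way. Over all tested sites 10.3% closed and 3.43% opened, and over all gene sums 20.9% were lower and 15.9% higher. The catenins and plakophilins, which bind cadherin tails, had 29 closed and 9 opened of 497 tested sites (5.84% and 1.81%), and 3 of 12 gene sums were lower and none higher. These were CTNNB1, which encodes beta-catenin (10 of 13 sites closed, sum −0.61, SE 0.05, FDR 6.11e-09), PKP1 (−0.45, SE 0.06) and CTNND1, which encodes p120-catenin (−0.27, SE 0.05). Desmosomal cadherins had 1 of 18 sites closed and no gene sum called. Other genes of the superfamily had 16 of 151 closed and 1 opened, and only CDHR3 was called by its sum (−0.59, SE 0.05, FDR 7.11e-09). Genes listed as planar polarity partners had 16 of 92 sites closed (17.4%) and 5 opened. By their sums PRICKLE2 was lower (−0.84, SE 0.04, FDR 1.01e-12), and FZD3 (0.30, SE 0.08) and FJX1 (0.32, SE 0.04) were higher.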

How the data were processed

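ATAC-seq measures open chromatin from the DNA that a transposase cuts and tags. The authors called consensus sites on merged replicates, counted reads per site and deposited these as whole-number counts, not normalized, with HOMER annotatePeaks annotations (GRCh38). DESeq2 is named in the submitters' processing notes. Not given in the sources used here: aligner, peak caller and any shift of reads for the transposase. The deposited columns of the authors' own comparisons (fold changes and p-values) were not used.

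From the counts, sites were filtered with filterByExpr (minimum count 10, which removed 10871 sites), scaled by TMM and tested with edgeR 4.0.16 (R 4.3.3, quasi-likelihood test, all 7 groups in 1 model, Benjamini-Hochberg adjustment over 357029 sites, called at FDR under 0.01). SEs are on the log2 scale. Sites carry the name of the nearest gene and may act on another. Gene sums were tested in the same way over 26743 genes. Motifs were searched on both strands in the central 200 bases of a site. Some of the markers, motifs and sequences examined are not reported here. One site lay outside the reference sequence and was left out of that search. The edgeR fit was tested on simulated data. Columns headed NSC were taken as the Control samples because the study describes a non-silencing control. The labels do not spell out NSC, and every contrast against Control rests on this match. Replicate numbers were read from the headings, and the Control columns repeated across the deposited tables held identical values in 15 of 15 comparisons.

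Named sites were the 10 largest falls and 6 largest rises called the same way with both combinations (mean of at least 1 CPM, all combination libraries on 1 side of Control, 1 site a gene), the nearest and most significant sites of CDH2, CDH5, CDH6 and CDH11, called start sites, and the largest ARID1A against ARID1B differences and departures from the sum. Exceptions are named as chosen after their values were seen. The members, gene lists and tests were chosen with earlier results of these data known. The series design describes biological triplicates. P-values measure the spread between these libraries. Alternatives were DESeq2 1.42.0, other scalings and filters, a replicate block and leaving out each library.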

Additional observations from a re-analysis of the deposited data

Results flagged for a closer look

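ARID1A and ARID1B silencing differed at 74 cadherin sites in a direct test (edgeR, FDR under 0.01). With ARID1A silencing 46 were lower and 28 higher, 2.47% and 1.5% of the tested members, where 3.69% and 1.05% of all sites were called. Besides the sites of PCDH15 (−1.32), CDH18 (−1.31), CDH7 (−1.28), PCDH18 (0.95), PCDH9 in intron 2 (0.87) and FAT4 (0.75) described above, the difference was called at the named sites of CDH5 (−1.07), PCDH9 at 276 kb (−0.40), CDH11 at 640 kb (−0.38) and CDH6 in intron 6 (−0.29). Negative values are lower for the mean of both ARID1A shRNAs. At the CDH5 site the libraries of both lay below all ARID1B libraries. At CDH6 in intron 6, shARID1A.2 libraries lay below all ARID1B libraries and shARID1A.4 libraries above them all. At CDH11, shARID1A.2 libraries lay below all ARID1B libraries, and those of shARID1A.4 overlapped them. At PCDH9 at 276 kb, shARID1A.4 libraries lay below them all and those of shARID1A.2 overlapped them.

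The combinations, which carry different shRNAs, differed from each other at 73 cadherin sites. With shARID1A/B.2.3 35 were lower and 38 higher, 1.88% and 2.04% of the tested members, where 3.79% and 1.43% of all sites were called. Among the sites named above, those that differed were PCDH9 at 276 kb (0.63), CDH6 in intron 6 (−0.43) and the start site assigned to CDH24 (−0.37). Negative values are lower with shARID1A/B.2.3. The differences were −2.45 at the CDH2 site 730 kb upstream, −1.79 at the PCDH10 site 323 kb away and 1.01 at the CDH18 site in intron 2, all picked because the combinations were called in opposite directions there.

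Both shRNAs against ARID1A were called in opposite directions at the CDH6 site in intron 6 (−1.0 with shARID1A.2 and 0.39 with shARID1A.4) and at the CDH6 site in exon 12 (−0.55 and 1.29). The shRNAs against ARID1B did so at the CDH2 site 730 kb upstream (1.40 with shARID1B.2 and −1.44 with shARID1B.3). These differences between shRNAs were not tested, and off-target effects of single shRNAs were not tested.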

How the results depend on the processing

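Counts of cadherin sites depend on read depth, on the nearest-gene assignment and on 1 cell line. Closed counts after combined silencing (183) stayed within 1.5 times under DESeq2, total-count scaling, GC offsets, no filter and the fit on the compared groups. Scaling on promoter sites lowered the median of all sites after combined silencing from 0.032 to −0.199, so its counts are relative to another zero. The replicate numbers were not treated as pairs, as 4 of 63 same-numbered pairs of libraries had deviations from group means correlating above 0.1 (range −0.16 to 0.305), and in 27 of the 63 the partner was the best match. With a replicate block, combined silencing closed 188 and opened 34 sites, the departure held 10 lower and 5 higher sites, 16 gene sums were lower, and ARID1A silencing raised 2 gene sums.

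Scaled on promoter sites, closed or lower sites numbered 281 for shARID1A/B.4.2, 158 for ARID1A silencing, 125 for ARID1B silencing, 143 for shARID1A.4, 56 for shARID1B.2, 152 for shARID1B.3, 3 for the departure and 21 for the combinations against each other. Scaled on promoter sites, opened or higher sites numbered 7 for combined silencing, 18 for shARID1A/B.2.3, 7 for shARID1A/B.4.2, 2 for ARID1A silencing, 5 for ARID1B silencing, 6 for shARID1A.2, 6 for shARID1A.4, 10 for shARID1B.2, 17 for shARID1B.3, 7 for combined against single silencing and 97 for the combinations against each other. Scaled on promoter sites, lower gene sums numbered 26 for combined silencing, 15 for ARID1A silencing and 11 for ARID1B silencing. Scaled on promoter sites, higher gene sums numbered 1 for ARID1B silencing. Scaled by total counts, opened or higher sites numbered 19 for shARID1A.2 and 64 for the combinations against each other. Scaled by total counts, higher gene sums numbered 3 for ARID1A silencing. With offsets for GC content, opened or higher sites numbered 20 for ARID1B silencing, 18 for shARID1A.2 and 58 for shARID1B.3. With DESeq2, closed or lower sites numbered 22 for shARID1B.2 and 4 for the departure. With DESeq2, opened or higher sites numbered 23 for shARID1A/B.2.3, 6 for shARID1A.2, 12 for shARID1B.2, 5 for combined against single silencing, 0 for the departure and 21 for the combinations against each other. With no filter on low counts, opened or higher sites numbered 22 for ARID1A silencing, 17 for shARID1A.2 and 1 for the departure. Fitted on the groups compared only, opened or higher sites numbered 26 for shARID1A/B.2.3. Within 100000 bases of the start site, closed or lower sites numbered 69 for combined silencing, 74 for shARID1A/B.2.3, 53 for shARID1A/B.4.2, 33 for ARID1A silencing and 23 for ARID1B silencing. Within 100000 bases of the start site, opened or higher sites numbered 27 for shARID1A/B.2.3 and 7 for ARID1A silencing. At an absolute log2 change of at least 1, closed or lower sites numbered 78 for combined silencing, 95 for shARID1A/B.2.3, 76 for shARID1A/B.4.2, 20 for ARID1A silencing, 17 for ARID1B silencing, 20 for shARID1A.2, 24 for shARID1A.4, 7 for shARID1B.2, 36 for shARID1B.3, 8 for combined against single silencing, 9 for ARID1A against ARID1B, 4 for the departure and 8 for the combinations against each other. At an absolute log2 change of at least 1, opened or higher sites numbered 3 for combined silencing, 11 for shARID1A/B.2.3, 6 for shARID1A/B.4.2, 1 for ARID1A silencing, 2 for ARID1B silencing, 2 for shARID1A.2, 7 for shARID1A.4, 7 for shARID1B.2, 9 for shARID1B.3, 2 for combined against single silencing, 3 for ARID1A against ARID1B, 2 for the departure and 11 for the combinations against each other, and gene sums in either direction numbered 0 for combined, ARID1A and ARID1B silencing. The cause was not tested.

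Leaving out each library, closed or lower sites numbered 144 to 175 for combined silencing, 138 to 157 for shARID1A/B.2.3, 98 to 132 for shARID1A/B.4.2, 62 to 80 for ARID1A silencing, 43 to 67 for ARID1B silencing, 55 to 64 for shARID1A.2, 45 to 58 for shARID1A.4, 21 to 31 for shARID1B.2, 64 to 88 for shARID1B.3, 94 to 111 for combined against single silencing, 38 to 47 for ARID1A against ARID1B, 3 to 12 for the departure and 29 to 38 for the combinations against each other. Leaving out each library, opened or higher sites numbered 23 to 41 for combined silencing, 28 to 61 for shARID1A/B.2.3, 19 to 27 for shARID1A/B.4.2, 10 to 20 for ARID1A silencing, 8 to 15 for ARID1B silencing, 5 to 15 for shARID1A.2, 15 to 18 for shARID1A.4, 8 to 15 for shARID1B.2, 23 to 37 for shARID1B.3, 11 to 27 for combined against single silencing, 21 to 26 for ARID1A against ARID1B, 0 to 4 for the departure and 20 to 36 for the combinations against each other. Leaving out each library, lower gene sums numbered 9 to 20 for combined silencing, 5 to 8 for ARID1A silencing and 4 to 10 for ARID1B silencing. Leaving out each library, higher gene sums numbered 2 to 5 for combined silencing, 1 to 3 for ARID1A silencing and 0 to 2 for ARID1B silencing. For ARID1B silencing, closed or lower sites numbered 43 without Control replicate 2. For shARID1B.2, closed or lower sites numbered 21 without shARID1B.2 replicate 3. For the departure, closed or lower sites numbered 3 without Control replicate 1, 3 without Control replicate 3, 4 without shARID1A.2 replicate 3, 4 without shARID1A.4 replicate 2 and 12 without shARID1A/B.2.3 replicate 2. For shARID1A/B.2.3, opened or higher sites numbered 28 without Control replicate 1. For ARID1A silencing, opened or higher sites numbered 20 without shARID1A.2 replicate 2. For shARID1A.2, opened or higher sites numbered 7 without Control replicate 3, 5 without shARID1A.2 replicate 1 and 7 without shARID1A.2 replicate 3. For shARID1B.2, opened or higher sites numbered 12 without Control replicate 1, 8 without Control replicate 3, 9 without shARID1B.2 replicate 1 and 12 without shARID1B.2 replicate 3. For shARID1B.3, opened or higher sites numbered 23 without shARID1B.3 replicate 2. For combined against single silencing, opened or higher sites numbered 12 without shARID1A/B.2.3 replicate 2, 11 without shARID1A/B.4.2 replicate 1, 12 without shARID1A/B.4.2 replicate 2 and 13 without shARID1A/B.4.2 replicate 3. For the departure, opened or higher sites numbered 0 without Control replicate 1, 0 without Control replicate 2, 0 without Control replicate 3, 1 without shARID1A.2 replicate 1, 2 without shARID1A.2 replicate 2, 2 without shARID1A.2 replicate 3, 1 without shARID1A.4 replicate 1, 2 without shARID1A.4 replicate 2, 0 without shARID1A.4 replicate 3, 1 without shARID1A/B.2.3 replicate 1, 2 without shARID1A/B.2.3 replicate 2, 1 without shARID1A/B.4.2 replicate 1, 0 without shARID1A/B.4.2 replicate 2, 1 without shARID1B.2 replicate 1, 1 without shARID1B.2 replicate 2, 1 without shARID1B.2 replicate 3, 1 without shARID1B.3 replicate 1, 1 without shARID1B.3 replicate 2 and 2 without shARID1B.3 replicate 3. For the combinations against each other, opened or higher sites numbered 22 without shARID1A/B.2.3 replicate 2, 23 without shARID1A/B.4.2 replicate 1, 23 without shARID1A/B.4.2 replicate 2 and 20 without shARID1A/B.4.2 replicate 3. For combined silencing, lower gene sums numbered 20 without shARID1A/B.2.3 replicate 2. For ARID1B silencing, lower gene sums numbered 4 without Control replicate 2. For combined silencing, higher gene sums numbered 5 without shARID1A/B.2.3 replicate 2. For ARID1A silencing, higher gene sums numbered 3 without Control replicate 1, 2 without Control replicate 3, 3 without shARID1A.2 replicate 2, 2 without shARID1B.2 replicate 2 and 2 without shARID1A/B.2.3 replicate 2. For ARID1B silencing, higher gene sums numbered 1 without Control replicate 1, 0 without Control replicate 2, 0 without Control replicate 3, 0 without shARID1B.2 replicate 2, 1 without shARID1B.2 replicate 3 and 1 without shARID1B.3 replicate 1.

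Among the named sites without a call, the sign of the combined change turned at the start sites of CDH6 (−0.23 scaled on promoter sites, −0.02 with GC offsets, −0.02 when Control replicate 3 was left out and −0.00 when shARID1A/B.2.3 replicate 2 was, with 0.06 the highest over all left-out libraries) and CDH11 (−0.14 and −0.15 with the same 2 normalizations), at FAT4 (−0.08 scaled on promoter sites and −0.04 to 0.41 over the left-out libraries, lowest when Control replicate 3 was left out) and CDH9 (−0.04 scaled on promoter sites), at CDH18 with GC offsets (0.02), and at PCDH17 (0.15 with GC offsets and −0.14 to 0.10 over the left-out libraries, positive when Control replicate 2 or, at 0.02, shARID1A/B.4.2 replicate 1 was left out). The cause was not tested. The PCDH9 site in intron 2 lost its combined call with GC offsets (−0.27, FDR 0.0154) and without Control replicate 2 (−0.36, FDR 0.0131), and the PCDH15 site at 258 kb likewise (−0.50, FDR 0.0127, and −0.46, FDR 0.0844). Where no departure above the sum was called at FDR < 0.01, the cadherin sites above it at an unadjusted p under 0.05 numbered 67 with DESeq2, 147 without Control replicate 1, 87 without Control replicate 2, 158 without Control replicate 3, 146 without shARID1A.4 replicate 3 and 118 without shARID1A/B.4.2 replicate 2. Where no gene sum was higher after ARID1B silencing, 3 without promoter-TSS sites, 3 without Control replicate 2, 5 without Control replicate 3 and 3 without shARID1B.2 replicate 2 were higher at an unadjusted p under 0.05 by edgeR. Departures at CDH9 (−1.49, FDR 0.0133), FAT3 (1.09, FDR 0.0423), PCDH10 (0.67, FDR 0.0368) and PCDH17 (−1.18, FDR 0.0138) kept their size but lost their call with DESeq2. In edgeR, the PCDH10 call was also lost with no filter (FDR 0.0112) and without any library other than shARID1A.2 replicate 2, shARID1A/B.2.3 replicates 1 and 3, shARID1A/B.4.2 replicate 1 and shARID1B.2 replicate 3 (FDR 0.0105 to 0.0404). The FAT3 call was lost without any library other than shARID1A.2 replicate 3, shARID1A.4 replicate 2, shARID1A/B.2.3 replicate 2, shARID1A/B.4.2 replicate 3, shARID1B.2 replicate 2 and shARID1B.3 replicate 1 (FDR 0.0107 to 0.0422). The PCDH17 call was lost when scaled on promoter sites (−1.06, FDR 0.017), with GC offsets (−0.98, FDR 0.0104) and without Control replicate 1 or 3, shARID1A.2 replicate 3 or shARID1A.4 replicate 2 (−1.11 to −1.03, FDR 0.0103 to 0.0189), and the CDH9 call without Control replicate 1 (−1.40, FDR 0.0136).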
